A study of Homo sapiens with 4 samples.

Results

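The 43 genes described here encode proteins that license and fire origins of DNA replication, copy the DNA or that open S phase. They were chosen by gene symbol, and all 43 were found among the 28278 symbols in the table of counts. RNA-seq was performed on polyA RNA of HepG2 cells, a human liver cancer line, in 4 libraries. Control cells carried Cas9 with a control sgRNA, and the other cells carried Cas9 with an sgRNA against *USP22*, a deubiquitinase of the SAGA complex. Both were kept as stable populations after lentiviral infection, and both received Sorafenib, a tyrosine kinase inhibitor, at 10 µM for 24 h, with 2 libraries per group. No library without Sorafenib was analysed here, so each difference is one between Sorafenib-treated cells. Nothing in the labels says that replicates came from separate cultures, so p-values measure only the spread between these libraries, which may be technical.

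The libraries held between 62030307 and 64728272 counts. Transcripts of the targeted gene, *USP22*, were not reduced under the sgUSP22 label, with 20279 and 20368 counts against 16450 and 16537 in control (log2 fold change 0.22, edgeR adjusted p = 0.000394), and every direction below follows the label. The authors report a check of the knockout by Western blot, which reads protein, whereas these counts read RNA. Of 24 hepatocyte and HepG2 markers, 11 were listed at 0 in all 4 libraries, *ALB*, *APOA1* and *TTR* among them, and the list summed to 20.9–23.8 CPM, which is counts scaled by library size and TMM factor. Of 5 fibroblast markers, *COL3A1* carried most of a sum of 565–572 CPM in control and 637–639 CPM in sgUSP22 libraries, with 499 and 508 CPM in control and 576 and 569 CPM in sgUSP22 libraries. *COL1A1* was at 57.3 and 54.9 CPM in control and 56.9 and 63.9 CPM in sgUSP22 libraries. *COL1A2* was at 0 in all libraries but sgUSP22 replicate 1, which held 7 counts, and *THY1* stayed under 0.5 CPM. *PDGFRB* went the other way from *COL3A1*, with a log2 fold change of -0.98. The liver identity that the label gives was thus not borne out by these transcripts. Of 4 endothelial markers, *KDR* was at 0 and the sum was between 0.131 and 0.529 CPM. Of the leukocyte markers, *CD3E* and *LYZ* were at 0, and *CD68* was at 73.8 and 73.9 CPM in control and 46.8 and 43.9 CPM in sgUSP22 libraries. The part of these differences in the results below was not tested.

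Replication starts from origins that are licensed in G1, when the origin recognition complex (ORC), CDC6 and CDT1 load the MCM helicase ring onto DNA. At the start of S phase, cyclin E with CDK2 and the DBF4-dependent kinase CDC7 let CDC45 and the GINS complex join the MCM ring, and polymerases then copy both strands behind the moving helicase. Most of these genes are transcribed in a wave at the G1/S boundary by E2F factors once the retinoblastoma protein is phosphorylated, and as a group they are widely used as a readout of proliferation.

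RefSeq promoters of GRCh38.p14, from 250 bases before to 50 bases after each start, were given for 37 of the 43 genes, with 46 promoters in all. *MCM4*, *MCM5*, *GINS4*, *CCNE2*, *POLD3* and *RPA2* had none in that table. An exact E2F motif (TTTCCCGC, TTTGGCGC, TTTCGCGC or TTTGCCGC, on either strand) was present in 22 of the 46 promoters, or 47.8%, against 3.31% of all 35116 promoters and 4.84% of the 16452 promoters of tested genes. The CCAAT box stood in 58.7% of the 46 promoters, against 34.6% of all and 34.4% of those of tested genes. The letters TTTGAA, the core of the CHR element of later cell cycle genes, stood in 1 of the 46, or 2.17%. Their share was 15.2% of all promoters and 10.6% of those of tested genes. A match is a description of the letters and not of a bound site. The 4 stretches below lie upstream of the start and show the range, each in hg38 and written 5′ to 3′ on the strand of its gene, with E2F motifs and CCAAT boxes in capitals. *MCM6* (chr2:135876444-135876693, minus strand) rose and has E2F motifs that overlap on both strands. *CDT1* (chr16:88803539-88803788, plus strand) fell and has 1 E2F motif. *E2F1* (chr20:33686386-33686635, minus strand) was near 0 in change and has 2. *CCNE1* (chr19:29811741-29811990, plus strand) had the largest fold change after *CCNE2* and has no exact match in this window.
MCM6: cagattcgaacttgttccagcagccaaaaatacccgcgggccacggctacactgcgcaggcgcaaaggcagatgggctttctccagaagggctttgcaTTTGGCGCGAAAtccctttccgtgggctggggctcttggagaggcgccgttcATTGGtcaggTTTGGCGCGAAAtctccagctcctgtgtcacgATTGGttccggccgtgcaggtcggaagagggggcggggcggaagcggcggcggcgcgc
CDT1: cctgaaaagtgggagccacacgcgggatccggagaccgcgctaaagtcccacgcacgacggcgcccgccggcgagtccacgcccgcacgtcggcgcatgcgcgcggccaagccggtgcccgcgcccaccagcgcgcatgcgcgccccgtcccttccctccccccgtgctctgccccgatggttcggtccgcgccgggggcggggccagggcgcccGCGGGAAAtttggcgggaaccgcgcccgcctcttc
E2F1: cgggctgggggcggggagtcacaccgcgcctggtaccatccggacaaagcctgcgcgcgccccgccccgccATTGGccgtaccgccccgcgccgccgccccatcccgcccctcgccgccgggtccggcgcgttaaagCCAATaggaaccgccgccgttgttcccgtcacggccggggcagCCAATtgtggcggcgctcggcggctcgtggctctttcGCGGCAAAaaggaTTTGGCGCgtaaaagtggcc
CCNE1: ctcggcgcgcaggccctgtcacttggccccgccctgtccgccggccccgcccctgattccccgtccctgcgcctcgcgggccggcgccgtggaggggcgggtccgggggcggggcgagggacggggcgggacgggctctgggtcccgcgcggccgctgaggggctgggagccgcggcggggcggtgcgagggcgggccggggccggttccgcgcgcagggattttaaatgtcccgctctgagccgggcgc
Matches were found among genes of both directions. An E2F motif was present in 4 of the 7 promoters (57.1%) of genes that rose and in 10 of the 23 promoters (43.5%) of genes that fell. Counted by gene, since some have several promoters, it was 4 of 7 (57.1%) and 9 of 15 (60%).

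As a group, the replication genes moved little, and the pair of cyclin E genes stood apart. *CCNE1* and *CCNE2* were 2.04-fold and 2.27-fold higher in sgUSP22 libraries, and the other 41 genes lay within a fold change of 1.40 in either direction. Within that narrow range more genes fell than rose, among them *MCM7*, *CDC45*, *UHRF1*, *MCM2* and *RFC2*, whereas *GINS1*, *POLA2*, *ORC6*, *FEN1* and *MCM6* rose. Licensing factors, the MCM ring, the helicase activators and the polymerases each held genes that rose and genes that fell.

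All 43 genes passed the count filter and entered the test with 15150 genes in all. Gene counts were scaled with TMM factors and compared with the quasi-likelihood test of edgeR, and the adjusted p used throughout is that test's p after Benjamini-Hochberg adjustment over all tested genes. A gene is called where the adjusted p is below 0.05 and the fold change at least 1.5, and "rose" or "fell" below means an adjusted p under 0.05 of any size. By these rules 2 of the 43 genes were called higher, against a background of 8.88% of all tested genes, and 0 were called lower, against 7.25%. DESeq2 also called 0 lower. In edgeR, 20 genes were lower and 9 higher at an unadjusted p under 0.05. The share of all tested genes at that unadjusted threshold is not given here, so these counts have no background. Without the fold threshold 8 genes rose, where 26.8% of all genes did, 18 fell, where 25.8% of all genes did, and 17 passed in neither direction. Control and sgUSP22 values were fully separate in 35 of the 43 genes, 9 higher and 26 lower, where 75.9% of all tested genes did not overlap. The median log2 fold change was -0.089 over the 43 genes and 0.00091 over all tested genes, with a range from -0.48 to 1.18 among the 43. Together the 43 genes took 0.687% and 0.675% of all counts in control and 0.661% and 0.657% in sgUSP22 libraries. In a bulk sample, fewer cells in S phase and less of these RNAs per cell cannot be told apart.

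Cyclin E binds CDK2 and drives entry into S phase, and E2F1 and E2F2 belong to the activator E2Fs upstream of it. *CCNE2*, on the minus strand of chromosome 8, had 510 and 499 counts in control and 1174 and 1242 in sgUSP22 libraries. Its level went from 8.18 ± 0.258 to 18.6 ± 0.972 CPM (SD, n = 2), a log2 fold change of 1.18 (SE 0.097, edgeR adjusted p = 6.81e-06). Its transcript is 34.6% G and C, and after a correction for GC content and length its log2 fold change was 0.94. The sgUSP22 libraries both lay far above both control libraries. The exons of *CCNE2* share 37.0% of their bases with *INTS8*, a subunit of the Integrator complex encoded on the opposite strand, and the strand setting of the counting is not given in the sources used here, so reads of the pair may not be separated. *INTS8* itself rose by less, with 2739 and 2701 counts in control and 3619 and 3672 in sgUSP22 libraries (log2 fold change 0.34, edgeR adjusted p = 0.000339). Per kilobase of transcript, the ratio of *CCNE2* to *INTS8* was 0.323 and 0.321 in control and 0.564 and 0.588 in sgUSP22 libraries.

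*CCNE1* (chr19:29811991-29824312, plus strand, hg38) had 169 and 247 counts in control and 465 and 431 in sgUSP22 libraries. Its level was 3.37 ± 0.840 CPM and 6.88 ± 0.283 CPM (SD, n = 2), a log2 fold change of 1.03 (SE 0.18, edgeR adjusted p = 0.00091). The groups did not overlap, but the control libraries differed more from each other than for *CCNE2*. Among the counted genes that were found in the GENCODE annotation, none had an exon that overlapped those of *CCNE1*. Both cyclins were called in each alternative setting except the test against a fold change of 1.5, which called *CCNE2* alone. Neither of these E2F genes passed the test, although *E2F3*, another activator, rose slightly (log2 fold change 0.15, edgeR adjusted p = 0.0194). *E2F1* had 2166 and 2456 counts in control and 2558 and 2429 in sgUSP22 libraries (log2 fold change 0.032, edgeR adjusted p = 0.721), and after a correction for GC content and length its log2 fold change was 0.19 (edgeR adjusted p = 0.0253). *E2F2* had 2915 and 2999 against 2794 and 2950 counts (log2 fold change -0.12, edgeR adjusted p = 0.0978).

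**Figure D1:**
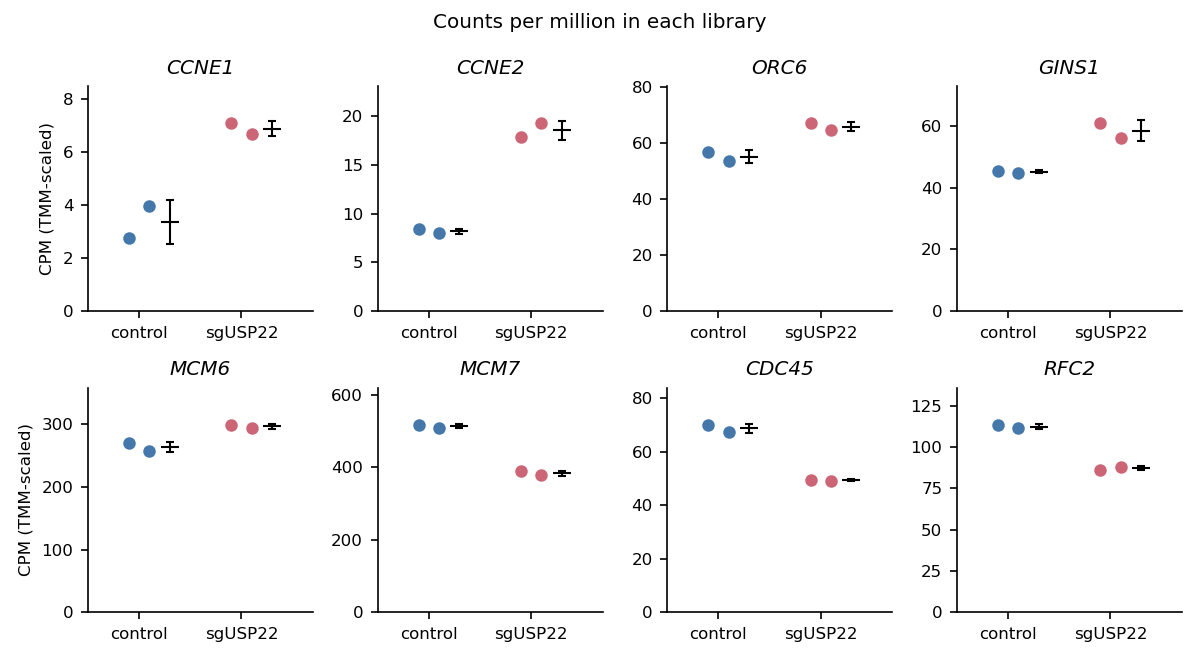
Level of 8 genes in each library, in CPM scaled with TMM factors on axes that start at 0. Coloured points are the 2 libraries of a group and the black mark beside them is their mean with its SD, and both sgUSP22 points lie above both control points for *CCNE1*, *CCNE2*, *ORC6*, *GINS1* and *MCM6* and below them for *MCM7*, *CDC45* and *RFC2*.

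Among the 4 licensing genes, ORC6 is the smallest ORC subunit and CDT1 brings the MCM ring to ORC and CDC6. *ORC6* (chr16:46689643-46698394) rose, from 3465 and 3347 counts in control to 4407 and 4188 in sgUSP22 libraries (log2 fold change 0.26, SE 0.050, edgeR adjusted p = 0.00181). *CDT1* (chr16:88803789-88809258) fell, from 5714 and 6262 to 5212 and 4962 counts (log2 fold change -0.31, SE 0.047, edgeR adjusted p = 0.000343). Neither gene had overlapping groups, and they moved in opposite directions. *CDT1* is rich in G and C, at 64.3% of its transcript, and after the GC and length correction its log2 fold change was -0.13. For *ORC1*, the largest ORC subunit, and *CDC6*, the ATPase that works with it, the log2 fold changes were -0.079 and 0.0064, and neither passed the test.

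The 6 genes of the MCM2–7 ring encode subunits that act in a single ring, yet their transcripts moved apart. *MCM7* (chr7:100092233-100101940, minus strand), the most abundant of them, fell from 31487 and 31741 counts to 25558 and 24474 (log2 fold change -0.42, SE 0.033, edgeR adjusted p = 4.98e-06). It shares 7.9% of its exon bases with *AP4M1* on the opposite strand. After the GC and length correction the log2 fold change of *MCM7* was -0.30. *MCM6* (chr2:135839626-135876443, minus strand) rose from 16412 and 16052 counts to 19595 and 18942 (log2 fold change 0.17, SE 0.037, edgeR adjusted p = 0.00327), and its log2 fold change was 0.091 after the GC and length correction. Both differences exceeded the spread within each group. *MCM2* and *MCM5* also fell, with log2 fold changes of -0.37 and -0.23, or -0.26 and -0.13 after the same correction. *MCM3* and *MCM4* did not pass the test, at -0.078 and -0.059. The genes around *MCM6* also tended upward, since the 24 tested genes within 5 Mb of it had a median log2 fold change of 0.23, whereas the 111 around *MCM7* had one of -0.042. Over all members, the median of such neighbourhood medians was 0.087 for the 8 genes that rose and -0.055 for the 18 that fell. Single genes also went against their neighbours. *FEN1* and *POLA2* rose among neighbours with medians of -0.14 and -0.17, and *RFC3* fell among neighbours with a median of 0.12. Whether the neighbourhood has a part in the change of *MCM6* or of any other member was not tested.

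Helicase activation needs MCM10, CDC45 and the 4-subunit GINS complex. *CDC45* (chr22:19479457-19520612) fell furthest of all 43 genes, from 4264 and 4207 counts to 3258 and 3176 (log2 fold change -0.48, SE 0.047, edgeR adjusted p = 2.39e-05). *GINS1* (chr20:25391008-25452700) rose from 2774 and 2796 counts to 3997 and 3618 (log2 fold change 0.37, SE 0.056, edgeR adjusted p = 0.000334). After the GC and length correction *CDC45* was at -0.38 and *GINS1* at 0.28. The replicates of each gene lay close together against the gap between groups. Within GINS, *GINS2* fell (-0.27), *GINS4* fell by less (-0.16), and *GINS3* did not pass the test (-0.089). *MCM10* fell (-0.19, or -0.29 with the GC and length correction). The smaller of these changes depended on the setting and on single libraries. For *GINS4* the adjusted p was 0.0508 in DESeq2 and, in edgeR, 0.0808 with library size alone, 0.0769 without control replicate 2, 0.0505 without sgUSP22 replicate 1 and 0.104 without sgUSP22 replicate 2. For *MCM10* the edgeR adjusted p was 0.0549 with library size alone and 0.125 without sgUSP22 replicate 1.

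The sliding clamp PCNA is loaded by the RFC complex, and the RPA proteins coat single-stranded DNA. *RFC2* (chr7:74231499-74254458, minus strand), a small subunit of the clamp loader, fell from 6908 and 6943 counts to 5672 and 5684 (log2 fold change -0.37, SE 0.040, edgeR adjusted p = 4.13e-05). After the GC and length correction *RFC2* was at -0.24. Its replicates lay close together, and the 69 tested genes within 5 Mb of it had a median log2 fold change of -0.22. *RFC4*, another small subunit, had 5655 and 5411 counts against 6314 and 6322 (log2 fold change 0.11, SE 0.045) and missed the threshold with an edgeR adjusted p of 0.0615, but passed it with library size alone (0.0123), after the GC and length correction (0.0303) and without control replicate 1 (0.0281). *RPA2* (-0.36) and *RFC3* (-0.26) fell, and *RFC3* was at -0.43 after the GC and length correction. *PCNA* itself, with 14335 and 14325 counts in control and 14151 and 14377 in sgUSP22 libraries, did not pass the test (log2 fold change -0.085, edgeR adjusted p = 0.0748), and neither did *RFC5* (-0.0065) or *RPA1* (-0.067). After the GC and length correction *RPA1* passed it, at -0.13 (edgeR adjusted p = 0.00912).

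Of the 8 genes of the polymerases and of the joining of Okazaki fragments, 3 rose and 3 fell. *POLE2* (chr14:49643555-49688422, minus strand), the accessory subunit of polymerase epsilon, had 292 and 221 counts in control and 350 and 409 in sgUSP22 libraries, the fewest of the group. Its log2 fold change was 0.49 with an SE of 0.18 and an edgeR adjusted p of 0.0437. The adjusted p was lost with all 4 libraries in DESeq2 (0.105), after the GC and length correction (0.0937) and without the count filter (0.118). The result also depended on the libraries used, with 0.72 (edgeR adjusted p = 0.0073) without control replicate 1, 0.28 (0.23) without control replicate 2, 0.59 (0.0477) without sgUSP22 replicate 1 and 0.35 (0.238) without sgUSP22 replicate 2. *LIG1* (chr19:48115445-48170603, minus strand), the ligase that seals Okazaki fragments, fell from 5244 counts in each control library to 4527 and 4533 (log2 fold change -0.29, SE 0.043, edgeR adjusted p = 0.000304), and its log2 fold change was -0.16 after the GC and length correction. *FEN1*, the flap nuclease that acts just before LIG1, and *POLA2*, a subunit of the priming polymerase alpha, rose with log2 fold changes of 0.25 and 0.33. The catalytic subunit genes *POLD1* (-0.27) and *POLE* (-0.14) fell, and *POLA1* (-0.071) and *POLD3* (-0.11) did not pass the test. The GC and length correction moved these genes in both directions. *POLA1* and *POLD3* passed after it, at -0.21 (edgeR adjusted p = 0.00276) and -0.20 (0.00825), and *POLD3* passed without control replicate 2 (0.0378). *POLD1*, whose transcript is 64.8% G and C, was at -0.093 with that correction (edgeR adjusted p = 0.11), and *POLE* had an edgeR adjusted p of 0.0906 with library size alone, 0.0595 without control replicate 1 and 0.0524 without sgUSP22 replicate 1.

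Ribonucleotide reductase makes deoxynucleotides from a large subunit (RRM1) and a small, cell cycle-regulated subunit (RRM2), and thymidylate synthase (TYMS) makes dTMP. *RRM1* was the most abundant of the 43 transcripts, with 104538 and 105865 counts in control and 111089 and 110020 in sgUSP22 libraries, and its log2 fold change was -0.0070 after scaling (SE 0.026, edgeR adjusted p = 0.848) and -0.087 after the GC and length correction (edgeR adjusted p = 0.00805). *RRM2* fell from 13757 and 13513 to 12601 and 12290 counts (log2 fold change -0.21, SE 0.037, edgeR adjusted p = 0.000906). Both sgUSP22 libraries lay below both control libraries for the small subunit. *TYMS* fell by 0.13 on the log2 scale, but it lost the adjusted p after the GC and length correction (log2 fold change -0.055, edgeR adjusted p = 0.239), with library size alone (-0.076, 0.141) and without the count filter (0.0826). It also lost it without control replicate 1 (0.0578), without control replicate 2 (0.0532) and without sgUSP22 replicate 2 (0.206), and its log2 fold change was -0.20 without sgUSP22 replicate 1. Of its exon bases, 39.9% are shared with *ENOSF1* on the opposite strand, which fell too (-0.27).

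UHRF1 brings DNMT1 to hemimethylated DNA behind the fork, the CHAF1 proteins place histones on new DNA, SLBP binds histone mRNA and claspin (CLSPN) relays the ATR checkpoint signal to CHK1. *UHRF1* (chr19:4903080-4962154) fell from 7963 and 8148 counts to 6783 and 6214 (log2 fold change -0.39, SE 0.044, edgeR adjusted p = 5.09e-05). After the GC and length correction *UHRF1* was at -0.30. Its 212 tested neighbours within 5 Mb had a median of -0.21. *CLSPN* had 4806 and 4340 counts in control and 5138 and 5475 in sgUSP22 libraries (log2 fold change 0.14, SE 0.064, edgeR adjusted p = 0.103), and it passed the test without control replicate 1 (0.23, 0.00994) and with library size alone (0.19, 0.033). *CHAF1A*, in the same region as *UHRF1*, fell by 0.12 on the log2 scale, but its log2 fold change was -0.0018 after the GC and length correction, and its adjusted p was 0.0888 in DESeq2 and, in edgeR, 0.0891 without the count filter, 0.236 with library size alone, 0.278 without control replicate 1, 0.0523 without sgUSP22 replicate 1 and 0.177 without sgUSP22 replicate 2. *CHAF1B* (-0.14) and *SLBP* (-0.061) did not pass the test, but *CHAF1B* did after the GC and length correction (-0.17, edgeR adjusted p = 0.0329) and among genes with a mean of 50 counts or more (0.0453).

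Within a library, the ratio of a pair of partner genes needs no scaling between libraries. It is not corrected for GC content, however, in which partners can differ. The ratio of *MCM6* to *MCM7*, both per kilobase of transcript, was 0.343 and 0.332 in control and 0.504 and 0.509 in sgUSP22 libraries. *GINS1* to *GINS2* went from 0.765 and 0.727 to 1.18 and 1.14, so that the order of the pair turned. For *FEN1* to *LIG1* the ratio was 1.92 and 1.89 in control and 2.86 and 2.69 in sgUSP22 libraries. Each of these 3 ratios was higher in both sgUSP22 libraries than in both control libraries. *ORC6* to *ORC1* likewise went from 1.43 and 1.40 to 1.77 and 1.80, and *RFC4* to *RFC2* from 1.01 and 0.962 to 1.37 and 1.37. *RRM2* to *RRM1* was lower, at 0.127 and 0.123 in control against 0.109 and 0.108. *MCM2* to *MCM7*, a pair that fell together, overlapped between groups, at 0.477 and 0.483 against 0.511 and 0.481. The pairs were picked after the values were seen, so they illustrate the split and cannot establish it, and the ratios carry no test. *MCM6* and *MCM7* transcripts are 43.2% and 55.8% G and C. Corrected for GC content and length, their log2 fold changes lay closer together, at 0.091 and -0.30 in place of 0.17 and -0.42. *FEN1* and *LIG1*, at 52.2% and 59.9% G and C, stood at 0.35 and -0.16 in place of 0.25 and -0.29. The part of base composition in the ratios was not tested.

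**Figure D2:**
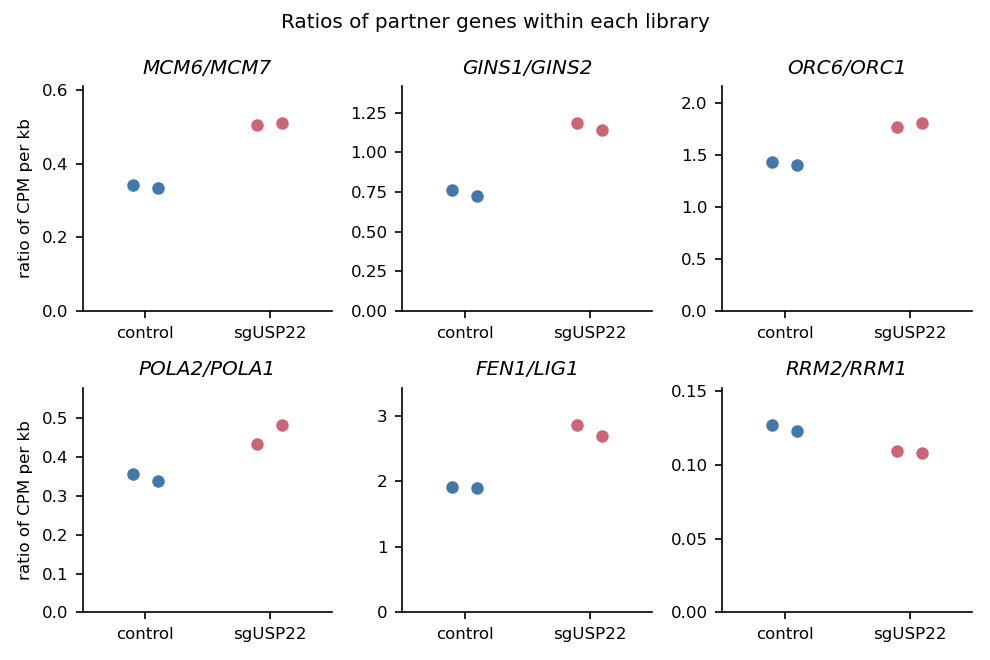
Ratio of the levels of 6 pairs of partner genes within each library, in CPM per kilobase of transcript, on axes that start at 0. Each point is 1 library, and the sgUSP22 points lie above the control points for 5 pairs and below them for *RRM2* to *RRM1*.

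In levels per kilobase of transcript, the 43 genes spanned a wide range. *RRM1* was at 542.9 CPM per kb in control, followed by *MCM7* at 207.8, *PCNA* at 182.1, *TYMS* at 161.0 and *MCM3* at 117.1. The lowest were *CCNE1* at 1.72, *POLE2* at 2.46 and *CCNE2* at 3.06. The 3 genes with the largest rises were thus also the 3 with the lowest levels, where counting error is largest.

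**Figure D3:**
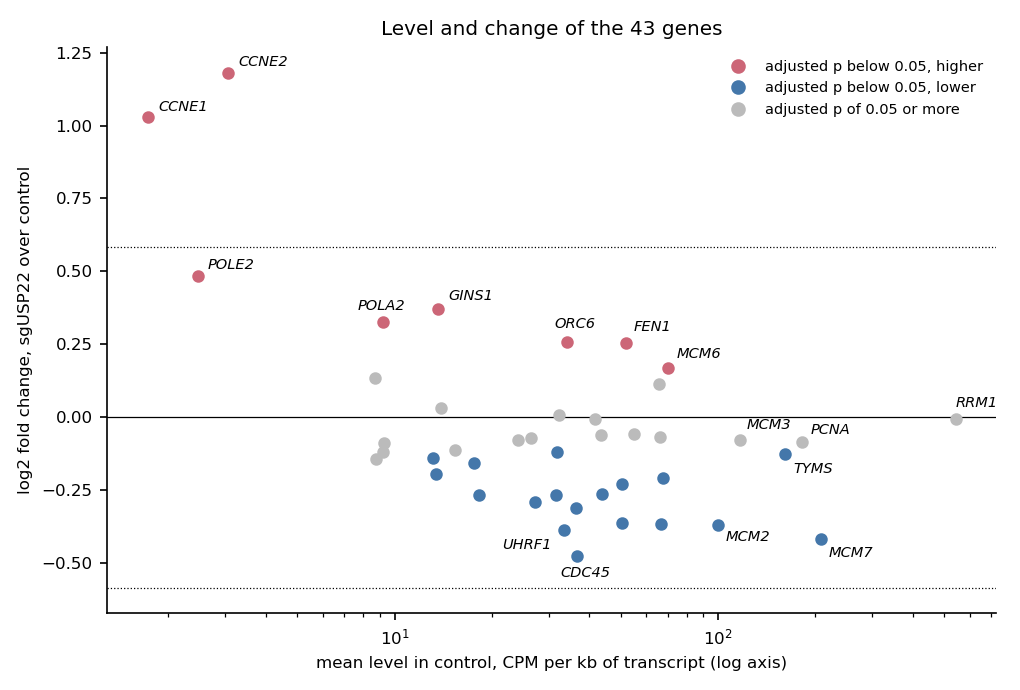
Level in control, in CPM per kilobase of transcript on a log axis, against log2 fold change, sgUSP22 over control, for the 43 genes. Each point is a gene, dotted lines mark a fold change of 1.5, and *CCNE1*, *CCNE2* and *POLE2* stand at the low end of the level axis with the highest fold changes, 1.03, 1.18 and 0.49.

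Base composition went with the direction of change. The median GC content of the canonical transcript was 44.5% for the 8 genes that rose, 54.2% for the 18 that fell and 47.1% for the 17 others. Across the 43 genes, log2 fold change and GC content had a Pearson correlation of -0.41 and a Spearman correlation of -0.44, given as a description over genes of the same 4 libraries. With the correction the Pearson value was -0.15, and 9 genes rose and 20 fell. The median log2 fold change was then -0.082, so the lean towards lower values was of the same size, while the single genes named above moved.

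Other genes of the same processes, in hand-written lists that hold none of the 43, were read alongside, with 7 genes called higher and 3 lower among the 120 of 121 that passed the filter. The exception was *CCND2*, listed at 0 counts in all libraries. Of the 120, 36 rose and 40 fell, and their median log2 fold change was 0.040. Over all tested genes, 8.88% were called higher and 7.25% lower, and without the fold threshold 26.8% rose and 25.8% fell. In the licensing and firing list of 16 genes, which holds the other ORC subunits and the kinase CDC7 with its activator DBF4, 7 rose, 3 fell, none was called, and the median was 0.11. Of the 19 fork and polymerase partners 3 rose and 7 fell, with a median of -0.073 and none called. Of 11 chromatin genes 3 rose and 7 fell, with a median of -0.12 and none called.

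The clearest change in nucleotide supply lay outside the 43 genes. *CTPS1*, the CTP synthase, fell from 22772 and 23100 counts to 10390 and 9755 (log2 fold change -1.27, edgeR adjusted p = 1.12e-08). *UMPS*, which completes the synthesis of UMP, rose from 1151 and 1119 counts to 2217 and 2165 (log2 fold change 0.87, edgeR adjusted p = 7e-06). *NME1*, a nucleoside diphosphate kinase, fell from 8286 and 8304 counts to 5805 and 5664 (log2 fold change -0.61, edgeR adjusted p = 1.23e-06). Of the 18 genes in that list 2 rose and 11 fell, with a median of -0.25.

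On the G1/S side, the 13 tested drivers had none called, with 3 that rose, 6 that fell and a median of -0.13. The 15 brakes had 3 called genes, with 5 that rose, 3 that fell and a median of 0.054. *E2F8*, a repressor E2F, rose from 99 and 102 counts to 385 and 384 (log2 fold change 1.86, edgeR adjusted p = 1.05e-05). *CDKN1C*, which encodes the CDK inhibitor p57, rose from 1978 and 1961 counts to 4368 and 3995 (log2 fold change 1.01, edgeR adjusted p = 6.75e-07). *CDKN2A*, which encodes p16 and ARF, fell from 18369 and 21636 counts to 14652 and 13291 (log2 fold change -0.60, edgeR adjusted p = 3.51e-05). Within these lists all 3 called genes thus came from the brakes, 2 of them higher and 1 lower. The cyclin E genes *CCNE1* and *CCNE2*, also drivers, were called higher but belong to the 43. They were therefore left out of the driver list, which was written with earlier results of these data known.

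Among 15 genes of the checkpoint and of licensing turnover, 4 rose and 2 fell, with a median of 0.067. *CCNF*, whose cyclin F directs replication proteins to degradation, rose from 842 and 870 counts to 1888 and 1950 (log2 fold change 1.09, edgeR adjusted p = 2.98e-06). *ETAA1*, which activates ATR at RPA-coated DNA, rose from 900 and 859 counts to 1755 and 1941 (log2 fold change 0.99, edgeR adjusted p = 1.24e-05). Of the 13 fork repair genes 9 rose, 1 fell and the median was 0.17. *XRCC2*, which acts in homologous recombination, had 980 and 1063 counts in control and 1975 and 2148 in sgUSP22 libraries (log2 fold change 0.94, edgeR adjusted p = 1.07e-05). *BRCA2*, of the same repair pathway, had 881 and 900 against 1448 and 1467 counts (log2 fold change 0.63, edgeR adjusted p = 0.000132). The values given for the other lists are not corrected for GC content. Transcripts of *BRCA2*, *XRCC2* and *ETAA1* are 36.2%, 40.0% and 35.5% G and C, whereas that of *CCNF* is 57.3%. With the GC and length correction, 11 genes of the other lists, G2/M genes included, were called in place of 13. The part of base composition in the rise of the fork repair genes was not tested.

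For comparison, 20 genes of G2 and mitosis were also mixed, with 8 that rose, 8 that fell and a median of 0.018. *AURKA* (0.60) and *CENPE* (0.70) were called higher and *CDK1* (-0.65) lower.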

How the data were processed

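RNA-seq of 4 libraries was analysed, 2 of control HepG2 cells and 2 labelled sgUSP22, all treated with Sorafenib for 24 h. The authors aligned reads to hg38 with HISAT2 2.2.1 and deposited whole-number gene counts from StringTie 2.2.1, not scaled to library size. The annotation, strand setting and read length are not given in the sources used here. Columns were assigned by name. Totals were 62030307 to 64728272 counts, and genes of few counts carry the largest error. A gene listed at 0 may hold up to 3 counts by counting error alone.

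The analysis used edgeR 4.0.16 in R 4.3.3 (TMM, filterByExpr at 10 counts, glmQLFit, glmQLFTest), with calls at 1.5-fold or more and adjusted p-values below 0.05. The code was tested on simulated data. Replicates differed by more than sampling noise (mean chi-square per gene 7.86 in control, 8.25 in sgUSP22). Alternatives were DESeq2 1.42.0, scaling with RLE factors or with library size alone, the replicate block, dropping the filter, keeping genes with a mean of 50 counts or more, a lowess correction for GC content and transcript length (span 0.3), testing against 1.5-fold, and fits without each library in turn. Positions, lengths and overlaps came from GENCODE release 44, which matched 25763 of 28278 symbols, and promoters from RefSeq. The genes named with counts are the called genes and the highest and lowest of each of 8 role groups, to which *PCNA*, *E2F1* and, without counts, *E2F3* were added after their values were seen. The members and lists were chosen with earlier results of these data known. The 5 Mb neighbourhoods and the ratios were chosen after seeing the data. Some items are not reported here.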

Additional observations from a re-analysis of the deposited data

How the results depend on the processing

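*CCNE1* and *CCNE2* were called and 0 genes were called lower in DESeq2, under either other scaling (RLE factors, library size alone), under either other filter, with the replicate block, with the GC and length correction and in each fit without 1 library. Without control replicate 1 or without sgUSP22 replicate 1, *POLE2* was called too. A test against 1.5-fold called 1 of the 43 genes, *CCNE2*, and 7 genes of the other lists, G2/M genes included, in place of 13, and over all genes 578 higher and 428 lower in place of 1345 and 1098. With library size alone the median of the 43 genes was -0.037 and that of all tested genes 0.053, against -0.089 and 0.00091. With the replicate number as a block, with the same pair called, the median was -0.089 and 1341 genes were called higher and 1100 lower in all. The correlation of deviations between libraries of 1 number was 0.042, so little deviation was shared. This value cannot tell whether the libraries were prepared as pairs. Near 0, signs turned for *CDC6* (-0.076) and *CLSPN* (-0.049) with the GC and length correction and for *RFC5* (0.046) and *RRM1* (0.045) with library size alone. Leaving out 1 library gave -0.032 to 0.045 for *CDC6*, -0.041 to 0.11 for *E2F1* and -0.040 to 0.014 for *RFC5*. Of the 8 genes that rose, 7 kept an adjusted p below 0.05 in all 11 settings that test against no change, the exception being *POLE2*, as did 12 of the 18 that fell. Over the 43 genes, 272 of 301 comparisons with other settings and 149 of 172 without 1 library kept direction and side of the threshold. Leaving out a library leaves 1 sample in a group, which is assumed to vary like the other group. With 2 libraries a group, small changes of genes with few counts, such as *POLE2*, cannot be settled at this depth.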
